A study of Mus musculus with 2 samples.

Results

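Wnt and R-spondin ligands, together with antagonists of the same pathway, were described by cell class in fibrotic mouse liver. The 10 genes Wnt2, Wnt9b, Wnt4, Wnt5a, Wnt5b, Wnt11, Rspo1, Rspo3, Dkk3 and Sfrp1 were taken by name, with no threshold on a measured value, and all 10 were found among the 19073 features of both count matrices. The questions were which cells carried each gene, and whether its level differed between a Tom+ and a Tom- library. Single fixed cells were measured with the 10x Genomics Flex assay, in which pairs of probes hybridise to each transcript and are counted by unique molecular identifiers (UMIs).

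Both groups came from male, heterozygous p16-Tom mice on a C57BL/6 background, made by crossing p16-CreERT2 with R26-CAG-LSL-tdTomato-WPRE animals. In these mice tamoxifen lets Cre from the p16 locus switch on the red protein tdTomato, so that a cell that used the p16 promoter when the drug was given stays red. The label is not confined to one cell type. All mice had received carbon tetrachloride (CCl4) for 4 weeks, which injures the hepatocytes around the central vein, together with tamoxifen. There was no untreated or vehicle library. Nuclei-positive, MitoBrilliant 646-positive cells were sorted as Tom+ or Tom-, and the labels call both sorts hepatocytes, p16high for Tom+ and p16low for Tom-. Each group is 1 library, and the number and age of the mice behind it were not given in the sources used here. Differences below therefore compare these 2 libraries and not the conditions. Every interval is a 95% exact interval that covers counting error only.

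Wnt proteins bind Frizzled receptors with the co-receptors Lrp5 and Lrp6, which stabilises beta-catenin and turns on target genes. R-spondins bind Lgr receptors and remove the ubiquitin ligases Rnf43 and Znrf3 from the surface, so that Frizzled receptors persist. In healthy liver, endothelial cells of the central vein are a known source of Wnt2, Wnt9b and Rspo3, and pericentral (zone 3) hepatocytes answer with genes such as Glul, Axin2 and Cyp2e1, while Wnt5a, Wnt5b and Wnt11 are best known for signalling that does not need beta-catenin.

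Sequences are shown for the 2 genes that shared the endothelial pattern described below, and for the qPCR assay of Wnt5a, the one member past 2-fold between the libraries over all hepatocytes among those with at least 20 UMIs. RefSeq promoters (GRCm38.p6) were found for 6 of the 10 genes. The 250 bases before the RefSeq transcription start of Wnt2 (chr6:18030446-18030695, minus strand) and of Wnt9b (chr11:103749822-103750071, minus strand) are written 5′ to 3′, with any GGAA or its reverse complement TTCC, the core of ETS factor motifs, in capitals. The RefSeq start of Wnt2 lies inside the gene span of the mm10 annotation given below, which begins further upstream.
Wnt2: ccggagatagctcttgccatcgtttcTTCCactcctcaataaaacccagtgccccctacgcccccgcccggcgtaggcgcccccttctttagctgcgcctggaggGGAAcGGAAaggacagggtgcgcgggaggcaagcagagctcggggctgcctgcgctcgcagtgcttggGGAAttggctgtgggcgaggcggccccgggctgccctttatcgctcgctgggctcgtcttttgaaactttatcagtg
Wnt9b: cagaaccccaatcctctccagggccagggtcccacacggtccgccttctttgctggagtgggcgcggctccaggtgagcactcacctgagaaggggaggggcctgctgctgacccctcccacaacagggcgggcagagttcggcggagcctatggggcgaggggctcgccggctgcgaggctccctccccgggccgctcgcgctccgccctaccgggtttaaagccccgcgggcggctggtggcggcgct
The Wnt2 stretch held 4 matches of GGAA on either strand and the Wnt9b stretch 0. GGAA was present in 93.4% of 32851 promoters of this length. GATAAG, a form of the GATA motif, was on either strand in neither stretch and in 6.55% of all promoters. Other forms of that motif were not counted. The TCF motif CTTTGATC was in neither and in 0.801%. These matches describe letters and not binding. For Wnt5a, the primers of the study's qPCR lie in coding sequence of chr14 (mm10), the forward at 28511918 to 28511940 in exon 2 and the reverse at 28513276 to 28513297 in exon 3 of 5. They bound a product of 196 bases in both coding GENCODE transcripts.
Wnt5a forward: ctccttcgcccaggttgttatag
Wnt5a reverse: tgtcttcgcaccttctccaatg

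In all, 681279005 UMIs were counted over 23220 barcodes for Tom- and 715333889 over 16339 for Tom+. The study's limits on genes, UMIs and mitochondrial share kept 20159 and 13378 cells with median depths of 26694 and 36075 UMIs. A total of 503 barcodes occurred in both libraries. The sort was seen in the reporter: tdTomato stood at 73.1 CPM (the UMIs of a gene scaled to a library sum of 1e6) in Tom- hepatocytes and 813 CPM in Tom+ hepatocytes, and its log2 ratio of Tom+ over Tom- lay between 2.56 and 3.75 in the other classes. Cdkn2a, the gene that encodes p16, had 63 and 73 UMIs in hepatocytes, a log2 ratio of 0.18 (−0.32 to 0.69). In zone 3-like hepatocytes Cdkn2a went the other way, with 13 and 16 UMIs or 0.28 and 0.11 CPM, a log2 ratio of −1.39 (−2.54 to −0.22). The study states that the human gene CDKN2A does not encode p16 alone. By qPCR of sorted hepatocytes it reported higher p16 in Tom+ cells. Hepatocyte clusters held 54.2% of the kept Tom- cells and 74.8% of the Tom+ cells. Another 4539 Tom- and 533 Tom+ cells were hepatocyte profiles with few genes, and 92 and 79 cycling cells stayed unnamed. The other cells carried endothelial, stellate, macrophage, other leukocyte, cholangiocyte or mesothelial markers, so that the label hepatocyte does not cover them all. Albumin was high in all of them: it made up 117993 and 108021 CPM in hepatocytes, 123969 and 119208 CPM in endothelial-like cells, and 111414 and 104837 CPM in stellate-like cells. No caller of doublets was run, and cells that stick together, free RNA and cells that truly share markers cannot be told apart here. Zone names were given to clusters of hepatocytes from zone markers, and 5273 Tom- and 3665 Tom+ hepatocytes in clusters with no clear zone stayed unnamed.

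Of the ligands known from central vein endothelium, Wnt2 (chr6:17988940-18030585, minus strand, mm10) was highest in endothelial-like cells among the classes with more than 100 UMIs of it. These cells had 8.16 CPM of Wnt2 in the Tom- library (565 UMIs in 1782 cells) and 9.71 CPM in the Tom+ library (453 UMIs in 1043 cells). Stellate-like cells had 5.46 and 7.90 CPM, macrophage-like cells 3.66 and 3.69 CPM, and hepatocytes 0.89 and 0.88 CPM. The order was the same in both libraries, and the intervals of these 4 classes did not overlap within the Tom- library. Endothelial markers themselves summed to 1425 and 1232 CPM in endothelial-like cells, 666 and 569 CPM in stellate-like cells, 603 and 471 CPM in macrophage-like cells and 127 and 98.9 CPM in hepatocytes, so that Wnt2 and these markers fell in the same order over these 4 classes. The unnamed cycling cells did not follow it, with markers at 1562 CPM and Wnt2 at 4.33 CPM (2.37 to 7.27) in the Tom- library. Tom+ mesothelial-like cells had 12.6 CPM of Wnt2, but from 4 UMIs.

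Set against those markers, Wnt2 gave 5.73 and 7.88 UMIs per 1000 endothelial marker UMIs in endothelial-like cells, and 6.08 and 7.83 in macrophage-like cells. In all hepatocytes it gave 6.99 and 8.89. The ratio of Wnt2 to endothelial markers in macrophage-like cells was thus close to that in endothelial-like cells. Stellate-like cells stood higher, at 8.20 (7.04 to 9.50) and 13.9 (12.1 to 15.8). It was higher in zone 3-like hepatocytes, at 12.6 (9.82 to 16.0) and 12.1 (10.3 to 14.1), than in zone 1-like hepatocytes, at 4.29 (3.39 to 5.36) and 5.05 (3.66 to 6.81).

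After each cell was thinned to 5000 UMIs, Wnt2 was seen in 5.03% of Tom- and 3.99% of Tom+ endothelial-like cells, against 0.45% and 0.48% of hepatocytes. Without thinning it was seen in 20.1% and 25.4% of endothelial-like cells and in 3.0% and 3.26% of hepatocytes. In other leukocyte-like cells, which should lack Wnt2, the unthinned share was 5.56% (2.81 to 9.72) and 5.81% (1.92 to 13.1), at median depths of 30552 and 37935 UMIs against 32253 and 35304 UMIs in hepatocytes. The hepatocyte share lay at or below this level, so that no hepatocyte expression is read from it. The leukocyte-like cells also held more endothelial markers, 348 and 225 CPM, and gave 4.66 and 5.84 Wnt2 UMIs per 1000 of these, with 5 Tom+ cells behind the second value.

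Wnt9b (chr11:103727364-103749821, minus strand) had fewer UMIs and fell in the order of Wnt2 over these classes in the Tom- library. In the Tom+ library its stellate-like level was slightly above the endothelial-like one. It stood at 1.56 and 2.66 CPM in endothelial-like cells, 1.02 and 2.76 CPM in stellate-like cells, 0.83 and 0.71 CPM in macrophage-like cells and 0.20 and 0.33 CPM in hepatocytes. The intervals of the endothelial-like and stellate-like levels overlapped in both libraries.

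**Figure D1:**
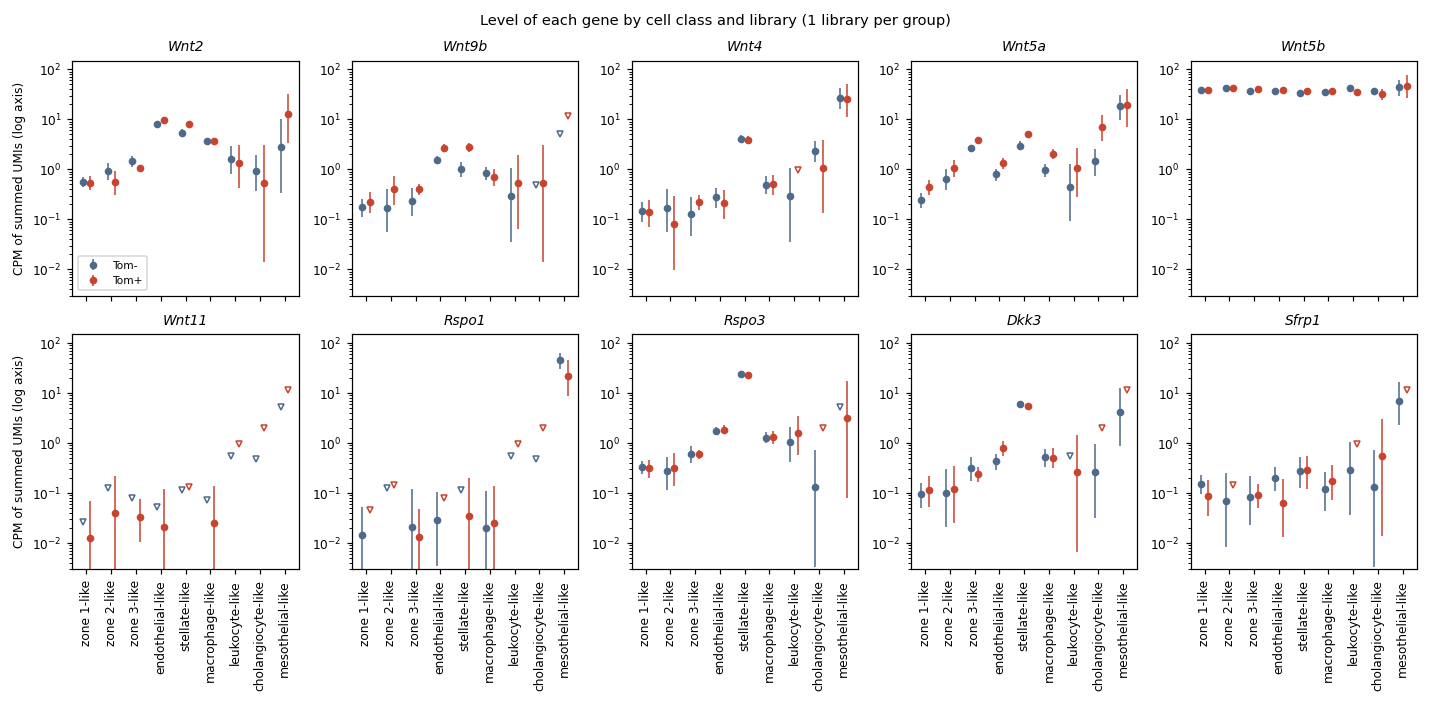
CPM of summed UMIs on a log axis for each of the 10 genes by cell class, Tom- in blue and Tom+ in red, with exact Poisson intervals; open triangles mark the upper limit where no UMI was counted. Among classes with more than 100 UMIs of the gene, Wnt2 peaks in endothelial-like cells at 8.16 and 9.71 CPM and Rspo3 in stellate-like cells at 24.2 and 22.5 CPM. Rspo1, with only 51 and 13 UMIs in all kept cells, is highest in mesothelial-like cells at 45.2 and 22.1 CPM. Wnt5b lies between 31.6 and 47.4 CPM in all classes.

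Of the 10 genes, 6 had helped to define the clusters, so levels were also read over all kept cells ordered by marker UMIs alone.
With no endothelial marker UMI among 5000, Wnt2 stood at 0.84 CPM in both libraries. With 10 or more such UMIs it reached 15.4 CPM (13.7 to 17.2) in the Tom- library and 22.3 CPM (19.2 to 25.7) in the Tom+ library. Wnt9b went from 0.18 to 2.6 CPM and from 0.28 to 6.92 CPM over the same cells. Both endothelial ligands thus climbed with endothelial markers, and at 10 or more marker UMIs their Tom+ and Tom- intervals did not overlap.

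**Figure D2:**
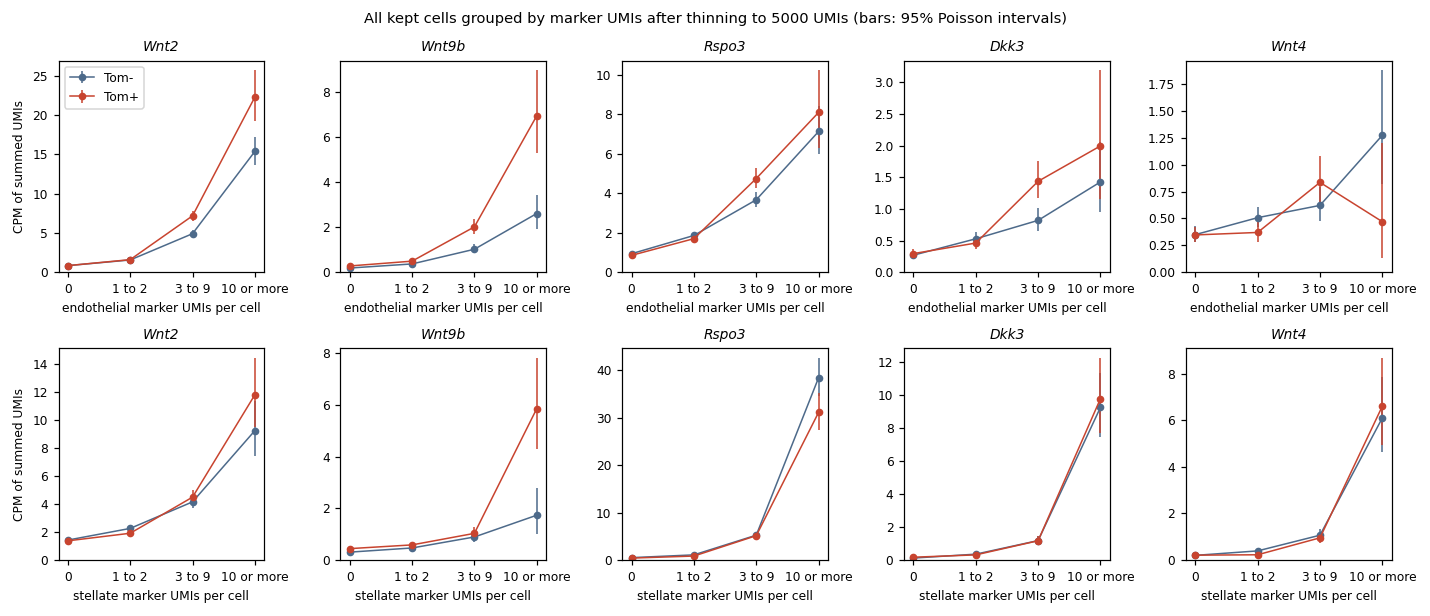
CPM of summed UMIs in all kept cells by the number of endothelial (upper panels) or stellate (lower panels) marker UMIs in 5000, Tom- in blue and Tom+ in red, with Poisson intervals. Wnt2 and Wnt9b rise with endothelial markers, Wnt2 to 15.4 and 22.3 CPM, and Rspo3, Dkk3 and Wnt4 rise steeply with stellate markers, Rspo3 to 38.5 and 31.2 CPM.

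Endothelial-like cells were then split by whether they held more central-side markers (such as Kit, Thbd and Selp) or more portal- and arterial-side markers (such as Efnb2, Dll4 and Msr1). The portal and arterial list did not single out endothelial cells. It summed to 306 and 242 CPM in endothelial-like cells, but also to 176 and 136 CPM in macrophage-like cells and 50.1 and 40.1 CPM in hepatocytes. The central list summed to 66.5 and 76.5 CPM, 41.3 and 39.8 CPM, and 6.47 and 6.37 CPM in the same classes. More central-side UMIs were found in 213 of 1782 Tom- cells, 11.9% (10.5 to 13.5), and in 199 of 1043 Tom+ cells, 19.1% (16.7 to 21.6). Wnt2 was at 35.9 CPM on the central side against 4.49 CPM on the portal side in the Tom- library, and at 27.5 against 5.64 CPM in the Tom+ library. Wnt9b was at 8.37 against 0.65 CPM and at 10.6 against 0.85 CPM. Rspo3 was at 9.49 against 0.63 CPM and at 6.55 against 0.82 CPM. All 3 genes were thus 4.87-fold to 15-fold higher on the central side in each library, and no interval of a central-side level overlapped its portal-side partner. Endothelial position and the amount of carried RNA cannot be told apart in this split.

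The libraries were then compared within a side. On the central side the log2 ratio of Tom+ over Tom- was −0.38 (−0.65 to −0.12) for Wnt2, 0.34 (−0.15 to 0.84) for Wnt9b and −0.53 (−1.08 to −0.00061) for Rspo3. With cells down to 500 genes kept, the endothelial-like cluster with the most of these genes went the other way, with Wnt2 at 39.0 and 58.0 CPM and Rspo3 at 10.2 and 25.9 CPM. On the portal side it was 0.33 (0.060 to 0.60) for Wnt2, 0.39 (−0.34 to 1.11) for Wnt9b and 0.38 (−0.36 to 1.11) for Rspo3. Of these 3 genes, Wnt2 and Rspo3 changed sign between the sides, and that change was not tested. The larger share of central-side cells in the Tom+ library stands beside the higher Wnt2 and Wnt9b of its endothelial-like cells as a whole, and its part in them was not tested.

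**Figure D3:**
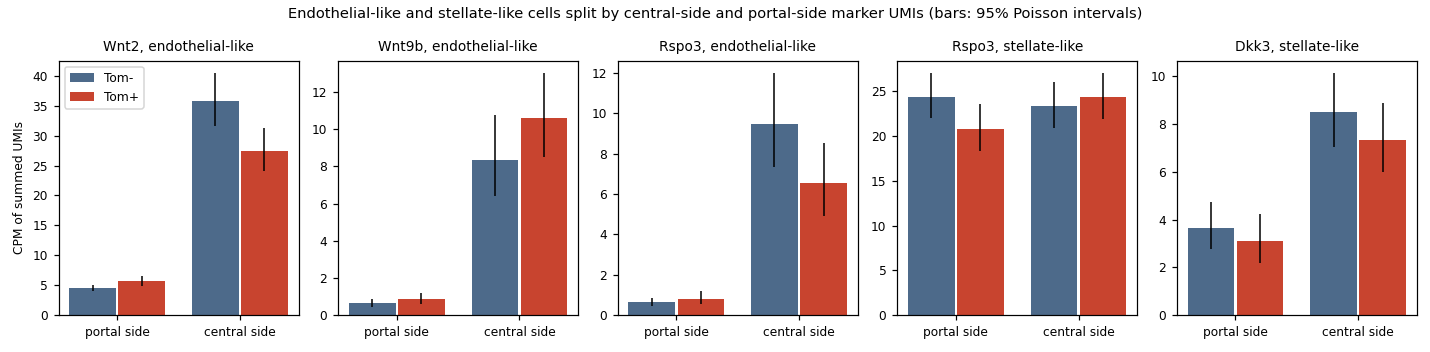
CPM of summed UMIs (bars from 0, Poisson intervals) in endothelial-like and stellate-like cells with more portal-side or more central-side marker UMIs, Tom- in blue and Tom+ in red. Wnt2, Wnt9b and Rspo3 are several times higher in central-side endothelial-like cells, in a split whose portal list hepatocytes also hold. Dkk3 is higher in stellate-like cells with more of the central list, which zone 3 hepatocytes also hold. Stellate-like Rspo3 lies between 20.8 and 24.4 CPM.

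Rspo3 (chr10:29452416-29535867, minus strand), the R-spondin known to sustain pericentral gene expression, was highest in stellate-like cells. It stood there at 24.2 CPM (783 UMIs) in the Tom- library and 22.5 CPM (634 UMIs) in the Tom+ library. Endothelial-like cells had 1.72 and 1.86 CPM, macrophage-like cells 1.29 and 1.30 CPM, and hepatocytes 0.44 and 0.45 CPM. Stellate-like cells held 59.8% of the Tom- and 64.6% of the Tom+ Rspo3 UMIs of kept cells, although they made up 4.58% and 4.81% of those cells. After thinning, Rspo3 was seen in 12.4% and 11.2% of stellate-like cells and in 0.24% and 0.30% of hepatocytes.

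Over all kept cells, Rspo3 climbed with stellate marker UMIs from 0.50 to 38.5 CPM (34.7 to 42.6) in the Tom- library and from 0.40 to 31.2 CPM (27.4 to 35.3) in the Tom+ library. Stellate-like cells were split by whether they held more UMIs of 4 markers listed as central (Adamtsl2, Spon2, Loxl1, Podn) or of 4 listed as portal (Ngfr, Igfbp3, Rgs4, Il34). The central list did not single out stellate cells: it summed to 71.3 and 62.5 CPM in zone 3-like hepatocytes, against 87.1 and 87.6 CPM in stellate-like cells, while the portal list summed to 3.17 and 3.28 CPM and to 115 and 86.8 CPM. A stellate position and carried zone 3 hepatocyte RNA therefore cannot be told apart in this split. It left Rspo3 nearly level, at 23.3 against 24.4 CPM in the Tom- and 24.4 against 20.8 CPM in the Tom+ library, with intervals of both ratios including 0. Under this cell filter Rspo3 was highest in stellate-like cells on either side of the split. With cells down to 500 genes kept, a Tom+ endothelial-like cluster had 25.9 CPM (20.0 to 33.1) and the main Tom+ stellate-like cluster 24.6 CPM (22.8 to 26.5), with intervals that overlapped. Under the first filter, Rspo3 in endothelial-like cells was higher on the central side.

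Rspo1, which like Rspo3 binds Lgr receptors, was counted in few cells. Its 51 Tom- and 13 Tom+ UMIs in kept cells lay mostly in mesothelial-like cells, which cover the liver surface, with 62.7% and 53.8% of them. These 35 and 15 cells gave 45.2 CPM (32 UMIs) and 22.1 CPM (7 UMIs), and their intervals overlapped.

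Wnt4, a ligand of mesenchymal and epithelial development, was at 4.04 and 3.86 CPM in stellate-like cells against 0.19 and 0.18 CPM in hepatocytes and 0.27 and 0.21 CPM in endothelial-like cells. It was at 26.8 CPM (19 UMIs) and 25.3 CPM (8 UMIs) in mesothelial-like cells, and at 2.38 CPM (18 UMIs) and 1.09 CPM (2 UMIs) in cholangiocyte-like cells. Its stellate level climbed with stellate markers over all kept cells, from 0.20 to 6.11 CPM and from 0.21 to 6.61 CPM, and its ratio across the stellate split had intervals that included 0 in both libraries. Under this cell filter Wnt4 was thus highest in mesothelial-like and stellate-like cells. The cholangiocyte-like level rested on 2 UMIs in the Tom+ library. These cells held mesothelial markers at 9.66 and 85.6 CPM, from a list that shares Krt19 with the cholangiocyte list. They also held cholangiocyte markers at 155 and 372 CPM and macrophage markers at 1467 and 1390 CPM. The part of each was not tested.

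Dkk3, a member of the Dickkopf family of secreted Wnt antagonists whose own effect on the pathway is not settled, was also mainly stellate. It stood at 5.95 CPM (193 UMIs) and 5.53 CPM (156 UMIs) there, against 0.16 and 0.20 CPM in hepatocytes, 0.43 and 0.79 CPM in endothelial-like cells and 0.51 CPM in macrophage-like cells of both libraries. Unlike Rspo3 it differed across the stellate split, with 8.48 against 3.66 CPM in the Tom- and 7.35 against 3.08 CPM in the Tom+ library. Cells with more of the central list were higher by a log2 ratio of 1.21 (0.75 to 1.69) and 1.25 (0.70 to 1.84), under the limit of this split given above.

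The frizzled-related antagonist Sfrp1 had 87 Tom- and 56 Tom+ UMIs in kept cells, 35 of them in the hepatocytes of each library. It stayed at or under 0.545 CPM in every class except Tom- mesothelial-like cells, which had 7.06 CPM from 5 UMIs. Wnt11 had 1 UMI in the Tom- and 10 UMIs in the Tom+ library. No class can be named for either gene at this depth, in which 3 UMIs correspond to 0.0077 and 0.0075 CPM in hepatocytes and 0.043 and 0.064 CPM in endothelial-like cells.

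Wnt5a (chr14:28504750-28527448, plus strand), which signals through Ror receptors, had most of its UMIs in hepatocytes, 55.1% of them in the Tom- and 72.6% in the Tom+ library. These shares are no higher than those of Wnt5b, which varied little between classes and had 64.0% and 75.1% of its UMIs there. By zone it went from 0.24 CPM in zone 1-like over 0.65 CPM in zone 2-like to 2.63 CPM in zone 3-like hepatocytes of the Tom- library. The Tom+ levels were 0.44, 1.08 and 3.78 CPM. Each zone was higher than the one before it in both libraries, and their intervals did not overlap.

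Wnt5a was counted in other classes as well. Stellate-like cells had 2.99 and 5.00 CPM, macrophage-like cells 0.95 and 2.06 CPM and endothelial-like cells 0.79 and 1.35 CPM. Unthinned, it was seen in 2.90% and 7.27% of macrophage-like and in 2.81% and 5.18% of endothelial-like cells. These shares lay inside the intervals of other leukocyte-like cells (0.31 to 4.36 and 1.28 to 11.5), so no expression is read from them. The unthinned stellate-like shares, 9.75% (7.91 to 11.85) and 18.0% (15.1 to 21.2), lay above those intervals. Glul stood at 34.0 and 98.8 CPM in stellate-like cells, against 222 and 289 CPM in zone 3-like hepatocytes. The part of hepatocyte RNA in the stellate-like shares was not tested. Mesothelial-like cells had 18.4 CPM (13 UMIs) and 19.0 CPM (6 UMIs), and cholangiocyte-like cells had 1.46 CPM (11 UMIs) and 7.08 CPM (13 UMIs). Mesothelial markers in the cholangiocyte-like cells went from 9.66 to 85.6 CPM and cholangiocyte markers from 155 to 372 CPM, with Krt19 in both lists. Msln, in the mesothelial list only, had 7 and 17 UMIs. Macrophage markers stood at 1467 and 1390 CPM in these cells. The part of each in the Wnt5a values was not tested. Stellate-like cells with more of the central list had 3.68 and 7.13 CPM, and those with more of the portal list 2.51 and 3.08 CPM. Zone 3-like hepatocytes carry both Wnt5a and the central list, and their RNA cannot be told apart from a stellate position here.

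The zonal slope was repeated with every hepatocyte placed by a score of zone 3 minus zone 1 markers and cut into 5 equal groups. From the portal to the central end, Wnt5a stood at 0.15, 0.40, 1.21, 1.78 and 3.11 CPM in the Tom- library. In the Tom+ library it stood at 0.43, 0.61, 1.62, 2.42 and 4.05 CPM. The level rose at each step in both libraries. The score has no gap at the cuts, and from 880 to 2946 of the 20940 hepatocytes lay within 0.1 SD of one of them. Stellate markers also rose along the score, from 110 to 247 CPM and from 106 to 240 CPM, and endothelial markers lay between 116 and 134 CPM and between 87.7 and 113 CPM. The part of stellate RNA in the slope of Wnt5a was not tested.

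Wnt2 went from 0.54 to 1.34 CPM along the score in the Tom- and from 0.58 to 1.01 CPM in the Tom+ library, where the first and the last step were down. Rspo3 went from 0.24 to 0.71 CPM and from 0.19 to 0.59 CPM. Rspo3 was seen, unthinned, in 1.49% and 1.62% of hepatocytes and in 3.03% and 5.81% of other leukocyte-like cells, so that no hepatocyte expression is read from either gene here. The leukocyte-like cells held more stellate markers, at 232 and 283 CPM against 166 and 203 CPM in hepatocytes. Their share is therefore not a background matched in carried RNA.

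**Figure D4:**
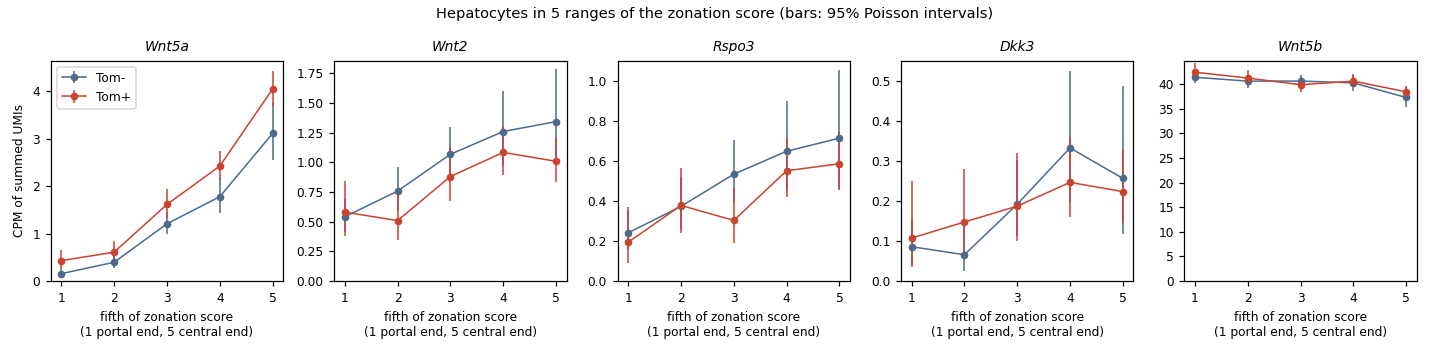
CPM of summed UMIs in hepatocytes of 5 ranges of the zonation score, from 1 at the portal end to 5 at the central end, Tom- in blue and Tom+ in red, with Poisson intervals. Wnt5a climbs from 0.15 to 3.11 CPM and from 0.43 to 4.05 CPM, Wnt2, Rspo3 and Dkk3 are higher at the central than at the portal end, and Wnt5b stays between 37.3 and 42.4 CPM.

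Wnt5a was also read in hepatocytes that showed no other markers after thinning to 5000 UMIs. These 1274 Tom- and 1337 Tom+ cells had no endothelial, stellate or immune marker UMI among the 5000 drawn. All their UMIs were summed, so carried RNA can remain. Wnt5a stood at 0.75 CPM (37 UMIs) and 1.56 CPM (85 UMIs) in them, against 0.95 and 2.25 CPM in all hepatocytes. In zone 3-like cells of this kind, 101 and 455 in number, it stood at 2.48 CPM (10 UMIs) and 2.76 CPM (50 UMIs), and in zone 1-like ones at 0.22 and 0.36 CPM (5 UMIs each). After thinning, Wnt5a was seen in 1.28% and 1.97% of zone 3-like cells, in 0.030% and 0.33% of zone 1-like cells, and in 0 of 193 and 1 of 86 other leukocyte-like cells, where the upper limits were 1.89% and 6.31%. Unthinned, the shares were 7.65% and 12.3% in zone 3-like, 0.96% and 1.88% in zone 1-like, and 1.52% and 4.65% in other leukocyte-like cells. The zone 3-like share stood above that of leukocytes in both libraries, with intervals that overlapped in the Tom+ library (11.3 to 13.4 and 1.28 to 11.5), while the zone 1-like share stood below it, inside the leukocyte interval in both libraries. The leukocyte shares rest on 3 and 4 cells. The leukocyte-like class also held zone 3 hepatocyte RNA, with Glul at 22.1 and 55.4 CPM against 5.68 and 12.6 CPM in zone 1-like cells. Its share therefore cannot tell expression from background in zone 1-like cells.

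Wnt5b, the close paralogue of Wnt5a, varied far less between classes than the other genes. It stood at 40.5 CPM (15797 UMIs) in Tom- and 40.2 CPM (15977 UMIs) in Tom+ hepatocytes, and between 31.6 and 47.4 CPM in every other class. After thinning it was seen in 19.1% and 17.7% of hepatocytes and in 14.3% to 17.7% of endothelial-like, stellate-like and macrophage-like cells. Over all kept cells it fell from 39.9 to 32.0 CPM and from 40.3 to 32.7 CPM as stellate marker UMIs rose from 0 to 10 or more, and from 39.8 to 34.6 CPM and from 40.3 to 34.9 CPM with endothelial ones. In the Tom- library its endothelial-like (37.0 CPM), macrophage-like (35.0 CPM) and stellate-like (34.1 CPM) levels lay below the hepatocyte one with intervals apart. With cells down to 500 genes kept, a shallow macrophage-like cluster had 24.0 and 22.6 CPM and a shallow endothelial-like one 30.2 and 21.5 CPM. Which part of this level was bound by probes outside the Wnt5b transcript was not tested.

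Position along the lobule was compared as zone 3-like over zone 1-like hepatocytes in each library, over genes with at least 20 UMIs. In the Tom- library 3 of the 8 members with enough UMIs were higher at least 2-fold, where 7.05% of 12300 genes were higher and 3.32% lower. They were Wnt5a with a log2 ratio of 3.45 (2.89 to 4.05), Dkk3 with 1.75 (0.58 to 2.94) and Wnt2 with 1.38 (0.89 to 1.87). In the Tom+ library 2 of 8 were, Wnt5a with 3.10 (2.61 to 3.64) and Dkk3 with 1.06 (−0.023 to 2.30), where 8.58% of 12593 genes were higher and 3.09% lower. No member was lower at least 2-fold in either library. Wnt2 reached 0.97 (0.48 to 1.49) in the Tom+ library, just short of the limit, and Dkk3 rested on 15 and 13 UMIs in the Tom- and 36 and 9 UMIs in the Tom+ library. Rspo3 had log2 ratios of 0.86 (0.12 to 1.57) and 0.91 (0.25 to 1.61), and the ratios of Wnt9b, Wnt4, Wnt5b and Sfrp1 lay within 1 of zero. No hepatocyte expression was read from Wnt2 above. Stellate markers stood beside Dkk3, at 124 CPM in zone 1-like and 225 CPM in zone 3-like Tom- cells, and Dkk3 per 1000 stellate marker UMIs was 0.77 (0.41 to 1.31) and 1.41 (0.79 to 2.33). In the Tom+ library it was 0.87 and 1.02 (0.71 to 1.41). The median over the 8 members was 0.66 and 0.84, against 0.23 and 0.27 over all genes. Targets of the pathway that had not been used to name zones were higher in zone 3-like cells too, with Notum at 3.12 and 2.93, Rnf43 at 2.52 and 2.41 and Znrf3 at 1.61 and 1.66.

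Between the libraries, Wnt5a had the largest ratio in hepatocytes among the 8 members with at least 20 UMIs. It rose from 0.95 CPM (372 UMIs) to 2.25 CPM (894 UMIs), a log2 ratio of 1.24 (1.06 to 1.42) or 2.36-fold. It was the only one of the 8 members with enough UMIs that was higher at least 2-fold, where 1.79% of 13483 genes were, and no member was lower at least 2-fold, where 0.586% were. Wnt9b had 0.20 and 0.33 CPM, a log2 ratio of 0.75 (0.33 to 1.17), but was seen in 0.70% and 1.21% of hepatocytes against 1.01% and 2.33% of other leukocyte-like cells (2 cells in each library), so that no hepatocyte expression is read from it. The leukocyte-like cells held more endothelial markers, at 348 and 225 CPM against 127 and 98.9 CPM in hepatocytes. Per 1000 endothelial marker UMIs, hepatocytes gave 1.55 and 3.35 (2.81 to 3.98) Wnt9b UMIs, and endothelial-like cells 1.09 and 2.16 (1.79 to 2.57). Wnt2 at −0.02 (−0.23 to 0.20), Wnt4, Rspo3, Dkk3 and Sfrp1 had intervals that included 0, and Wnt5b at −0.01 (−0.044 to 0.019) did not differ by more than a few percent. The study also measured Wnt5a by qPCR after choosing genes partly from these libraries, so its direction here is not independent evidence.

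The libraries also differed in zone makeup. The Tom+ library held 3966 zone 3-like and 1808 zone 1-like cells, against 1412 and 3332 in the Tom- library. Within zone 3-like hepatocytes Wnt5a went from 2.63 to 3.78 CPM, a log2 ratio of 0.52 (0.24 to 0.81), and within zone 1-like hepatocytes from 0.24 to 0.44 CPM, a log2 ratio of 0.88 (0.15 to 1.61). Both were smaller than the ratio over all hepatocytes, and both intervals excluded 0. The zone 1-like share of cells with Wnt5a did not stand above that of leukocytes. The leukocyte-like cells held more zone 3 RNA than zone 1-like cells, so their share cannot decide whether zone 1-like cells express it. Along the 5 ranges of the score the log2 ratio was 1.48 (0.48 to 2.48), 0.62 (−0.081 to 1.32), 0.42 (0.031 to 0.81), 0.45 (0.10 to 0.80) and 0.38 (0.076 to 0.69) from the portal to the central end. Glul was also higher in the Tom+ library in each range, from 6.11 to 10.5 CPM at the portal and from 289 to 368 CPM at the central end. Axin2 went the other way at the central end, from 229.5 to 203.8 CPM. The ranges thus did not hold all zone 3 markers level between the libraries. Low counts gave wide ratios for other members within single ranges. Wnt9b had 1.27 (0.13 to 2.65) at the central end, from 7 Tom- and 56 Tom+ UMIs. Rspo3 had −0.82 (−1.63 to −0.056) in the third range, from 50 and 21. Wnt4 had −1.26 (−3.67 to 0.52) in the first range, from 18 and 3 UMIs, −1.34 (−2.80 to −0.085) in the third, from 24 and 7, and 2.03 (0.034 to 5.14) in the last, from 2 and 27.

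No member passed 2-fold within zone 1-like or zone 3-like cells. In zone 3-like cells 0 of 7 did, where 1.53% of 12522 genes were higher and 0.487% lower. In zone 1-like cells 0 of 8 did, where 0.884% of 12326 genes were higher and 0.941% lower. The median log2 ratio of the members was 0.01 over all hepatocytes, 0.09 inside zone 3 and −0.0056 inside zone 1, against 0.04, 0.04 and 0.01 over all genes compared. Outside the zones, Sfrp1 in unnamed hepatocytes had 1.13 (−0.22 to 2.59), from 8 and 14 UMIs, and Rspo3 in hepatocyte profiles with few genes had −1.09 (−1.84 to −0.41), from 160 and 20 UMIs. Wnt2 was lower in Tom+ zone 3-like cells, at 1.06 against 1.47 CPM, a log2 ratio of −0.46 (−0.88 to −0.03), and Wnt5b higher by 0.09 (0.017 to 0.17), which turned to −0.012 with at least 1000 genes per cell. Endothelial markers went from 116 to 88.3 CPM in the same zone 3-like cells, and Wnt2 per 1000 of their UMIs was 12.6 and 12.1.

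The zone classes were made of partly different clusters in the libraries. Of the zone 3-like cells, one cluster held 1102 Tom- and 2389 Tom+ cells, another 37 and 1532 and one more 273 and 45, and of the zone 1-like cells one held 1868 and 185, one 1428 and 1138 and one 36 and 485. Without the clusters that were at least 90% Tom+, an alternative chosen after the data were seen, Wnt5a had a log2 ratio of 0.98 over all hepatocytes, 0.30 within zone 3-like clusters and 0.37 within zone 1-like clusters, so that it no longer passed 2-fold. This alternative takes out mainly Tom+ cells by construction and keeps the zone 1-like cluster of 1868 Tom- and 185 Tom+ cells. In zone 3-like hepatocytes with no other marker UMI among 5000 drawn, the ratio was 0.16 (−0.84 to 1.30). The Tom- library had 10 UMIs there, and no difference was detectable at that depth.

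**Figure D5:**
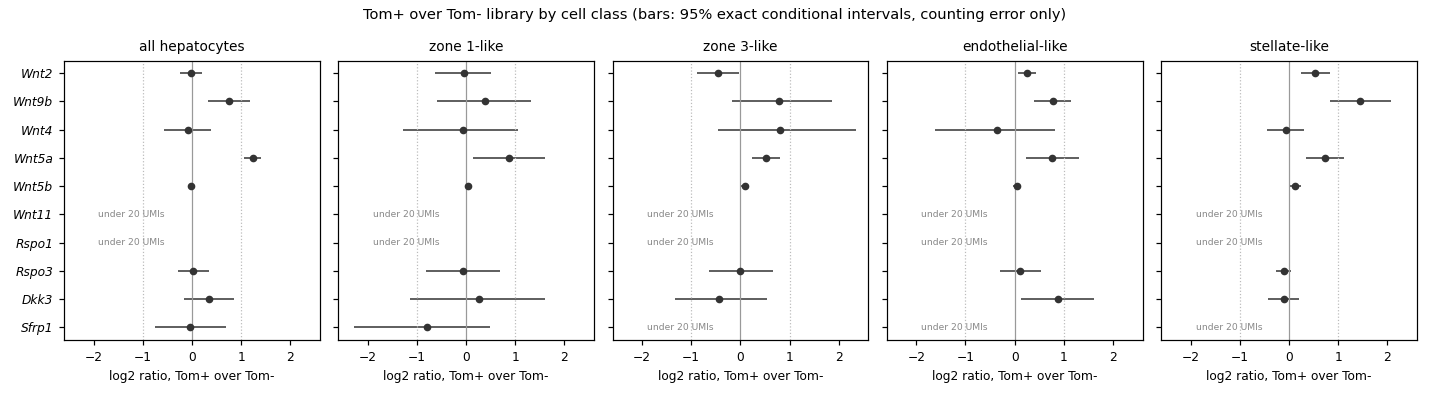
Log2 ratio of Tom+ over Tom- CPM by gene in 5 classes, with exact conditional intervals for counting error; dotted lines mark 2-fold, and genes under 20 UMIs carry no point. Wnt5a lies above 0 in all 5 classes, at 1.24 in all hepatocytes, Wnt9b reaches 1.44 in stellate-like cells, and Rspo3 and Wnt5b stay near 0.

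In endothelial-like cells 0 of 7 members passed 2-fold, where 0.82% of 12434 genes were higher and 0.442% lower. Wnt9b went from 1.56 to 2.66 CPM, a log2 ratio of 0.77 (0.39 to 1.16), and Wnt2 from 8.16 to 9.71 CPM, a ratio of 0.25 (0.070 to 0.43). The class joins a cluster of 1360 Tom- and 888 Tom+ cells, with Wnt2 at 6.30 and 8.62 CPM, and one of 422 and 155 cells, with 31.3 and 37.1 CPM, so that its makeup differed between the libraries. Dkk3, with 30 and 37 UMIs, had 0.87 (0.14 to 1.62). Stellate markers in the same cells went from 226 to 274 CPM, and their part in the Dkk3 ratio was not tested. Wnt2 turned direction when cells were thinned to 5000 UMIs, at −0.22. The median of the 7 members was 0.25, against 0.01 over all genes.

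In stellate-like cells 1 of 7 members passed 2-fold, where 0.693% of 12562 genes were higher and 0.804% lower. It was Wnt9b, from 1.02 CPM (33 UMIs) to 2.76 CPM (78 UMIs), a log2 ratio of 1.44 (0.84 to 2.07). Wnt2 went from 5.46 to 7.90 CPM, 0.53 (0.24 to 0.83), while the sum of endothelial markers in these cells went from 666 to 569 CPM. The central-side endothelial markers among these cells went up beside Wnt2 and Wnt9b, from 50.6 to 62.8 CPM, and the portal- or arterial-side ones down, from 266 to 211 CPM. Their part in the Wnt2 and Wnt9b values was not tested. The genes with a stellate profile had intervals that included 0: Rspo3 had −0.10 (−0.26 to 0.048), Wnt4 −0.07 (−0.45 to 0.31) and Dkk3 −0.11 (−0.42 to 0.20). The median of the 7 members was 0.13, against −0.00027 over all genes.

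Wnt5a was higher in the Tom+ library in these classes too. Its log2 ratio was 0.77 (0.22 to 1.32) in endothelial-like, 0.74 (0.36 to 1.13) in stellate-like and 1.12 (0.58 to 1.66) in macrophage-like cells. Hepatocyte genes of zone 3 moved beside it in the same cells: Glul, glutamine synthetase, had log2 ratios of 1.18, 1.54 and 1.22 there, and Oat, ornithine aminotransferase, 1.77, 1.77 and 1.64. The part of hepatocyte RNA in these Wnt5a values was not tested.

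The wider pathway was read from a list of 78 other genes that were chosen with earlier results known. In all hepatocytes 51 had enough UMIs, and 6 were higher and 0 lower at least 2-fold. Of 13483 genes, 1.79% were higher and 0.586% lower. All 6 were among the 16 listed beta-catenin targets, led by Glul at 1.71, Oat at 1.68 and Slc1a2, a glutamate transporter, at 1.58. These 3 genes also helped to name zone 3, and the Tom+ library held 3966 zone 3-like hepatocytes against 1412. The part of zone makeup in this count was not tested. The median log2 ratio of the 51 was 0.14, against 0.04 over 13483 genes. The smallest ratios were those of the repressor Tcf7l1 at −0.55, the antagonist Sfrp4 at −0.52 and the factor Lef1 at −0.25 (−1.10 to 0.59).

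Within zone 3-like hepatocytes 47 of the list had enough UMIs and 0 passed 2-fold in either direction, with a median of −0.02 against 0.04 over all genes. Of 12522 genes, 1.53% were higher and 0.487% lower. The ends of the list were Sfrp4 at 0.86 (−0.31 to 2.26), the receptor Fzd6 at 0.71 and Oat at 0.65, and the Wnt carrier Wls at −0.53, the inhibitor Nkd1 at −0.27 and Axin2, the feedback inhibitor, at −0.22. Of the targets not used to name zones, Rnf43 went from 97.0 to 103 CPM, Znrf3 from 63.9 to 61.0 CPM and Sp5 from 12.4 to 11.5 CPM. Of the 15 listed targets with enough UMIs, 6 had an interval above 0 and 7 below 0 inside the zone. Oat and Glul, at 0.38, stayed above 0 there.

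Within zone 1-like hepatocytes 3 of 46 were higher at least 2-fold, Oat at 1.27, Slc1a2 at 1.26 and Glul at 1.15, and 1 was lower, the co-receptor Ptk7 at −1.14 (−2.91 to 0.33). Nkd1 at −0.33 (−0.92 to 0.23) and Tcf7l1 at −0.27 followed. Of 12326 genes in these zone 1-like cells, 0.884% were higher and 0.941% lower. In endothelial-like cells 3 of 46 were higher, Oat, Glul and the ammonium transporter Rhbg at 1.02, and 0 lower, with Wls at −0.30, Tcf7l1 at −0.26 and the receptor Fzd8 at −0.22 at the other end. Of 12434 genes there, 0.82% were higher and 0.442% lower. In stellate-like cells 4 of 46 were higher, led by Slc1a2 at 1.78, and 0 lower, with the receptors Fzd2 at −0.90 (−2.44 to 0.48), Fzd5 at −0.29 and Lgr4 at −0.21 lowest. Of 12562 genes there, 0.693% were higher and 0.804% lower. The genes that led in these classes were the hepatocyte genes named above. By UMIs, Cyp2e1 and Cyp1a2, cytochromes of zone 3 hepatocytes, came first in each class except cholangiocyte-like cells, where Cyp2e1 and Lrp6 did.

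Genes with the pattern most like each member were found by Pearson correlation of log2(CPM + 1) over 30 profiles of cluster and library, which share their libraries and depth. Nearest to Wnt2 were Cyp26b1 (0.98), Jam2 (0.98) and Gja4 (0.98), and nearest to Wnt9b were Cdh13 (0.96), Gnao1 (0.93) and Cyp26b1 (0.93). Cdh13 is one of the central-side markers. Nearest to Rspo3 were Hand2 (0.97) and Gdf2 (0.96), nearest to Dkk3 were Ltbp1 (0.97), Notch3 (0.94) and Foxf1 (0.94), and nearest to Wnt4 were Pamr1 (0.95), Ptk7 (0.93) and Dzip1l (0.93). Wnt5a had weaker partners, Akr1b7 (0.86), Slc24a3 (0.85) and Pdzrn3 (0.85), and Wnt5b had Cutal (0.96) and Abcc6 (0.91). Wnt11, Rspo1 and Sfrp1 had too few UMIs.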

How the data were processed

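Cell Ranger 7.2.0 and mm10 are named in the submitters' processing notes. The authors deposited 1 matrix of raw UMI counts per library, used as deposited. Cells with 2000 to 10000 genes, at most 100000 UMIs and a mitochondrial share of at most 0.05 were kept, as in the study's methods. Cells were scaled to 10000, and 2000 variable genes, 30 principal components and 20 neighbours entered Leiden clustering (resolution 0.8, scanpy 1.11.5, leidenalg 0.10.2), which gave 18 clusters, and hepatocytes were clustered again into 14. Clusters were named from marker lists. UMIs were summed over the cells of a class in 1 library. Levels are CPM of these sums with Poisson intervals (exact), and ratios have exact conditional intervals (scipy 1.17.1). With 1 library per group there was no test and no replicate error. Genes with at least 20 UMIs over both sums were compared at 2-fold. The ratio script was tested on simulated data. The genes named in the text are the 10 members, of 78 pathway genes the 3 largest and 3 smallest ratios per comparison, and the 3 most alike genes, of which 2 are not reported here. Members and lists were chosen with earlier results of these data known. Levels of different genes are not comparable, since probes differ in efficiency and may bind close relatives.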

Additional observations from a re-analysis of the deposited data

Results flagged for a closer look

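Among cell classes and endothelial sides, 3 ratios of Tom+ over Tom- had an interval on the other side of 0 than the same gene in another class or side, and the differences between the classes were not tested. Wnt2 had a log2 ratio of −0.38 in central-side endothelial-like cells and 0.33 in portal-side ones. Wnt2 had −0.46 in zone 3-like hepatocytes, against 0.25 in endothelial-like and 0.53 in stellate-like cells. Endothelial markers in the zone 3-like cells went from 116 to 88.3 CPM, Wnt2 per 1000 of their UMIs was 12.6 and 12.1, and no hepatocyte expression was read from this Wnt2 level. The endothelial-like ratio turned to −0.22 in cells thinned to 5000 UMIs. Wnt5b had −0.069 in unnamed hepatocytes, against 0.09 in zone 3-like (−0.012 with at least 1000 genes per cell) and 0.13 in stellate-like cells. Along the zonation score, Wnt4 had −1.34 in the third range and 2.03 in the last, the second from 2 Tom- UMIs, and this difference was not tested either.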

How the results depend on the processing

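No paired analysis was possible because there is only 1 library on each side. Of 82 counts recomputed under alternatives 58 stayed within 1.5 times. Of 461 log2 ratios 424 did not move beyond counting error, 35 moved and 2 reversed. Reversed was counted only where the main interval excluded 0. Other ratios that changed sign count as moved or not moved, such as Wnt9b in zone 1-like hepatocytes, from 0.38 to as low as −0.59. Those reversed were Wnt2 in endothelial-like cells, at −0.22 in cells thinned to 5000 UMIs, and Wnt5b in zone 3-like hepatocytes, at −0.012 with at least 1000 genes per cell. Members past 2-fold between the libraries in all hepatocytes, 1 as reported, became 2 in thinned cells, with low-gene clusters kept, without hepatocytes holding another class's marker UMI and at 1.5-fold, and 0 without the clusters at least 90% Tom+ (added after the data were seen). In zone 3-like cells 0 became 1 thinned and 2 at 1.5-fold. In zone 1-like cells 0 became 2 with the mean over cells or at 1.5-fold, and 1 with low-gene clusters kept or zones from terciles of the score. In endothelial-like cells 0 became 3 at 1.5-fold, and in stellate-like cells 1 became 0 thinned and 2 at 1.5-fold. For zone 3-like over zone 1-like, 3 in the Tom- library became 1 thinned, 0 in marker-free hepatocytes (where Wnt5a, at 2.48 and 0.22 CPM, fell under the limit of 20 UMIs) and 5 at 1.5-fold, and 2 in the Tom+ library became 1 with at least 1000 genes, the mean over cells, low-gene clusters kept, marker-free hepatocytes, at least 100 UMIs or without the Tom+ clusters, and 6 at 1.5-fold. Marker-free, or without another class's marker UMI, means here that none was drawn among 5000 UMIs, so carried RNA can remain. Thinning and marker-free cells leave fewer UMIs, and otherwise the cause was not tested. Wnt5a in all hepatocytes ranged from 0.98 to 1.61, in zone 3-like cells from 0.16 to 0.66 and in stellate-like cells from 0.08 to 0.82. Rspo3 ranged from −0.60 to 0.34 in all hepatocytes, from −0.41 to 1.83 in zone 3-like and from −0.98 to 0.48 in endothelial-like cells. All 14 shares of cells moved between thinned and unthinned cells, and 39 of 108 levels in CPM moved, Wnt2 in Tom- endothelial-like cells from 8.08 to 16.0 and Rspo3 in Tom- stellate-like cells from 18.5 to 54.3. Depth limits Wnt11, Rspo1 and Sfrp1, and no value has a replicate error.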

Other observations

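When cells with as few as 500 genes were kept, a smaller endothelial-like cluster of 807 Tom- and 460 Tom+ cells was found. It had Wnt2 at 39.0 and 58.0 CPM, Wnt9b at 8.81 and 28.4 CPM and Rspo3 at 10.2 and 25.9 CPM. Wnt2 and Rspo3 were higher in the Tom+ library, opposite to the central-side cells of the report. Its Wnt5b stood at 30.2 and 21.5 CPM. Among the cells of the report, the endothelial-like cluster with median depths of 10371 and 7193 UMIs had Wnt2 at 31.3 and 37.1 CPM, against 6.30 and 8.62 CPM in the cluster with 44759 and 48887 UMIs.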
